A study of Mus musculus with 12 samples.

Results

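ATF4 and 9 genes of the integrated stress response and the unfolded protein response were examined in mouse bone marrow macrophages treated with an antibody that neutralizes integrin α5. The set was defined by gene symbol (Atf4, Ddit3, Trib3, Asns, Chac1, Sesn2, Psat1, Hspa5, Xbp1 and Herpud1) and makes up 10 of the 54532 genes in the tables. A total of 11 rows carry one of these symbols, because a further Ddit3 identifier was at 0 in every library and was left aside. With ITGA5 neutralization, Atf4 transcript was 1.71-fold higher without fibronectin and 1.51-fold higher with it. Asns, Psat1 and Herpud1 also rose on both surfaces and Sesn2 fell on both. No tested gene of the set was called between coated and uncoated plates in either antibody group. Few genes of any kind were called there by edgeR, 0.325% higher and 0.124% lower in IgG and 0% in anti-ITGA5.

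Bone marrow macrophages (BMMs) came from wild-type C57BL/6J mice aged 2 to 3 months, from tibial marrow per the labels and from tibial and femoral marrow per the study's methods. Marrow cells were differentiated with CSF-1, first at 12 ng/ml and then at 120 ng/ml for 48 h, and passaged once onto uncoated plates or onto plates pre-coated with fibronectin, the main matrix ligand of integrin α5β1. Confluent cells then received 10 µg/ml of the anti-ITGA5 antibody or 10 µg/ml of control IgG for 24 h. RNA-seq covered 4 groups of 3 libraries: on uncoated plates IgG without fibronectin and anti-ITGA5 without fibronectin, and on coated plates IgG with fibronectin together with anti-ITGA5 with fibronectin. All groups therefore share the wild-type genotype, CSF-1 differentiation and an added antibody, and no group was left without one. The study describes the samples of a group as biologically independent experiments, and neither it nor the labels say whether they came from separate animals.

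Cells respond to unfolded protein in the endoplasmic reticulum (ER), to amino acid shortage and to other stresses by phosphorylating the translation factor eIF2α, which slows protein synthesis in general but favours translation of ATF4 from its own mRNA. ATF4 is a transcription factor that switches on genes for amino acid synthesis and uptake, tRNA charging and feedback control. The unfolded protein response has other arms as well, in which the kinase and nuclease IRE1 splices Xbp1 mRNA and the membrane protein ATF6 is cleaved to a transcription factor, and these raise chaperones and the machinery that removes misfolded protein. Gene counts report mRNA abundance only, so neither ATF4 protein, eIF2α phosphorylation nor Xbp1 splicing was measured here.

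Counts on genes ranged from 12954342 to 22075432 per library. The shallowest library, anti-ITGA5 without fibronectin replicate 2, also had the most genes with a count (21123, against 19542 to 20426 in the others), and replicates of its group gave a per-gene chi-square of 10.4 to 23.0 against each other, compared with 2.65 to 7.45 in the other 3 groups. Calls of the set that change without this library are given both ways. All 10 macrophage markers examined, among them Csf1r, Adgre1 and Cd68, had at least 10 counts in every library. Their summed level was 15050 to 16060 CPM (counts scaled to a common library size) in IgG and 11770 to 13190 in anti-ITGA5 without fibronectin, and 15450 to 15530 in IgG and 12900 to 13130 in anti-ITGA5 with fibronectin. Of these 10 markers, 5 were called lower with the antibody on each surface, while 1 was called higher without fibronectin and 2 with it. Of all genes tested, 9.79% were called lower and 11.0% higher without fibronectin and 13.2% and 14.4% with it, so the higher calls were close to the share of all genes. Markers of fibroblasts, neutrophils, dendritic cells, B cells and T cells summed to at most 6.52 CPM in any library, with Ly6g, Retnlg, Cd3d and Cd3g at 0 throughout, and those of endothelial cells to 17.1 to 25.7. The sum of the B cell markers was lower with the antibody without overlap, at 4.43 to 6.52 CPM in IgG and 3.12 to 4.09 in anti-ITGA5 without fibronectin, and at 4.89 to 6.42 and 2.87 to 4.13 with it. With fibronectin the sum of the neutrophil markers was also lower without overlap, at 2.49 to 3.86 CPM in IgG and 1.63 to 2.44 in anti-ITGA5. Only 1 of 5 B cell markers and 1 of 6 neutrophil markers had at least 10 counts in every library. These sums therefore rest on few genes at low counts. The part of these marker differences in the results below was not tested, and in bulk RNA fewer cells of a type cannot be told apart from less RNA per cell. Transcripts of the neutralized receptor did not pass the threshold with all libraries under TMM scaling: Itga5 differed by 0.15 (adjusted p = 0.0906) and Itgb1 by -0.04 (adjusted p = 0.661) on the log2 scale without fibronectin, and by 0.07 (adjusted p = 0.273) and -0.08 (adjusted p = 0.138) with it. Without fibronectin Itga5 was called when anti-ITGA5 replicate 2 was left out (0.15, adjusted p = 0.0338) and when libraries were scaled by total counts (0.19, adjusted p = 0.0344). An antibody that blocks the protein need not change the mRNA, so these values do not check the labels.

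Levels of the set are given as FPKM, a count scaled by transcript length and by library size, which allows genes of different length to be compared. In IgG without fibronectin Hspa5 stood highest, at 380 ± 5.61 FPKM (SD, n = 3). It encodes BiP, the abundant Hsp70 chaperone of the ER lumen. Xbp1 (50.4 ± 1.02) and Atf4 (47.3 ± 3.13) followed and their ranges overlapped (49.2 to 51.0 and 44.5 to 50.7 FPKM). Psat1 (15.0 ± 0.507) and Sesn2 (13.2 ± 0.459) came next without overlap, then Herpud1 (10.3 ± 0.101) and Ddit3 (9.81 ± 1.48), whose ranges overlapped. Asns (6.82 ± 0.443), Trib3 (2.99 ± 0.411) and Chac1 (0.256 ± 0.108) closed the order, each below the range of the gene before it. Chac1 rested on 2 to 28 counts in any of the 12 libraries, so its values carry a large counting error.

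**Figure D1:**
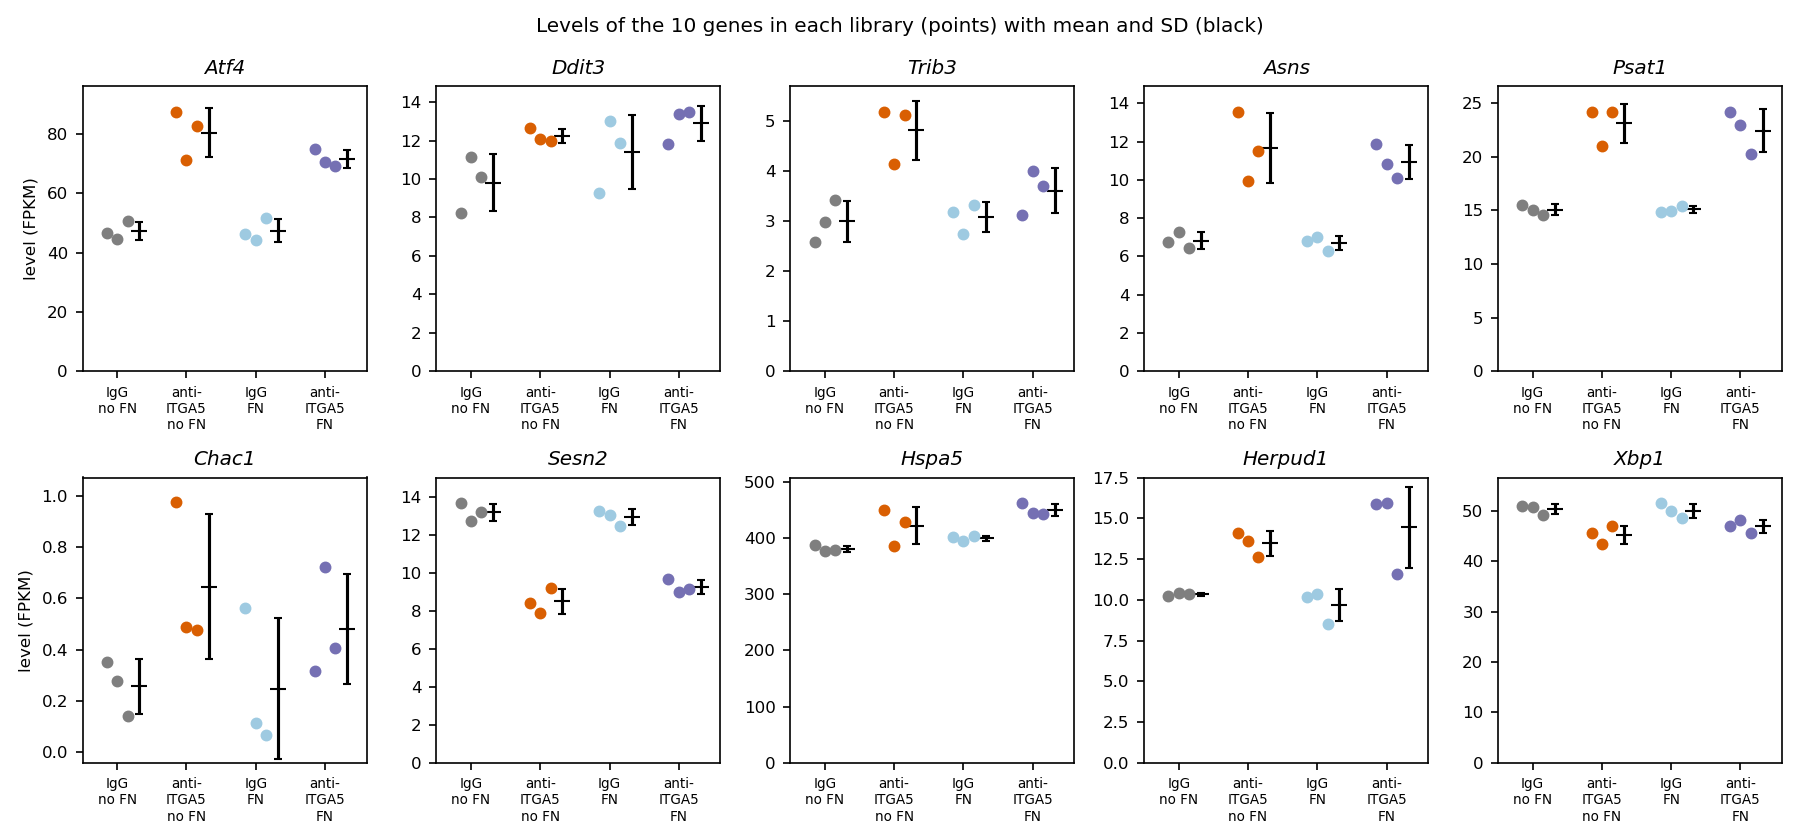
Level in FPKM of each of the 10 genes (vertical axes, linear) in the 4 groups (horizontal axes, FN for fibronectin), with 1 coloured point per library and the mean and SD of 3 libraries in black. Atf4, Asns and Psat1 sit higher and Sesn2 lower in both anti-ITGA5 groups than in the IgG groups, with no library of one overlapping the other, whereas Ddit3, Trib3 and Chac1 overlap between IgG and anti-ITGA5 with fibronectin.

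The promoter windows of the set were searched for sequences known to bind the factors of these pathways, from 250 bases before to 50 bases after the RefSeq start (GRCm38.p6). The motifs were TGATGNAA, the composite element bound by ATF4 with a C/EBP partner; the ER stress element, which is CCAAT and CCACG separated by 9 bases; the ER stress element II, which is ATTGG and CCACG separated by 1 base; and the XBP1 element TGACGTGG, each on both strands. All 10 genes had a window, and 5 of them held a match. The composite element was found in Asns, Trib3, Chac1 and Herpud1, that is in 4 of 10 genes, and in 4.51% of the 27025 genes of the mouse table, counting a match in any window of a gene. The ER stress element was found in Hspa5 and in 0.137% of all genes, and the ER stress element II in Herpud1 and in 0.0444%, whereas TGACGTGG was in no window of the set and in 0.714% of all genes. The genes of the set were chosen as members of these pathways, so their share of matches is not independent of that choice. The matched stretches are shown because their letters match motifs known from these pathways. Each is written 5′ to 3′ on the strand of the gene, with the matched letters in capitals:
Asns, chr6:7693210-7693262, minus strand: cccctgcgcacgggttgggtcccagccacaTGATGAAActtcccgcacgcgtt
Trib3, chr2:152344029-152344056, minus strand: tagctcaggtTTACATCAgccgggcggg
Chac1, chr2:119351019-119351086, plus strand: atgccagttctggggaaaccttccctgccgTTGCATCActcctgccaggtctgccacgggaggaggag
Herpud1, chr8:94386287-94386417, plus strand: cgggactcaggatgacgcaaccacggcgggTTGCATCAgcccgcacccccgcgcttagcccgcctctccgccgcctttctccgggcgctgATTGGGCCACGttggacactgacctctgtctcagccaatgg
Hspa5, chr2:34771995-34772073, plus strand: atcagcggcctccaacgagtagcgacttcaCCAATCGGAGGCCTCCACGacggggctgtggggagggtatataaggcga

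In Asns the composite element reads along the gene and ends 16 bases before the start, while in Trib3, Chac1 and Herpud1 it lies on the opposite strand, so the capitals show its reverse complement. The Trib3 match lies 14 bases after the RefSeq start, and the stretches of Hspa5 and, in part, of Asns and Trib3 fall inside the gene as GENCODE M21 annotates it, since its start differs from that of RefSeq. Atf4, Ddit3, Psat1, Sesn2 and Xbp1 held none of these letters in this window, which says nothing about sites elsewhere. A match describes the sequence and is not evidence of binding in these cells.

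**Figure D2:**
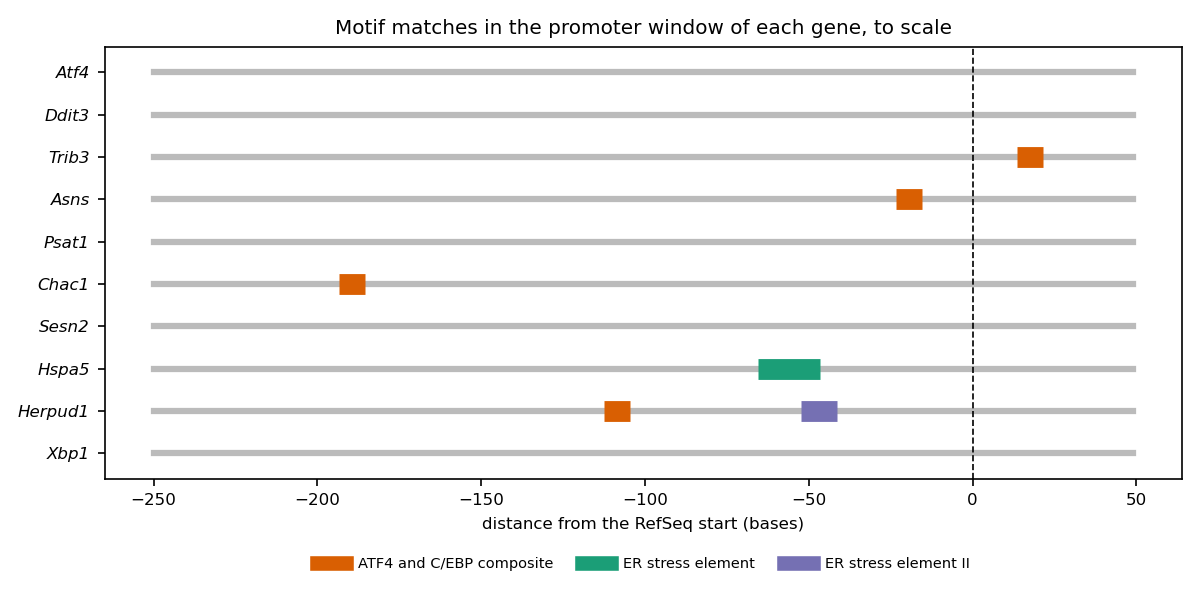
Position of each motif match (coloured blocks, drawn to scale) in the promoter window of the 10 genes (grey lines), as distance in bases from the RefSeq start (dashed line). The composite element appears in Trib3, Asns, Chac1 and Herpud1, the ER stress element in Hspa5 and the ER stress element II in Herpud1.

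In order to examine the effect of ITGA5 neutralization, anti-ITGA5 was compared with IgG on each surface, using the counts of those 6 libraries and edgeR. A gene was called when its p-value, adjusted by the Benjamini-Hochberg method over all genes tested, was at most 0.05. Without fibronectin, 5 of the 10 genes were called higher and 1 lower, whereas 11.0% of all 12924 genes tested were called higher and 9.79% lower. With fibronectin the counts were again 5 and 1, compared with 14.4% and 13.2% of 12916 genes. The set was chosen with earlier results of these data known, so these counts are a description and not a test. The median log2 fold change of the set was 0.50 without fibronectin and 0.40 with it, while the median of all genes tested was 0.01 and -0.00. In FPKM, the 3 anti-ITGA5 libraries lay wholly above the 3 IgG libraries for 7 genes and wholly below them for 2 without fibronectin, and for 5 and 2 genes with it. Over all genes tested 38.2% and 42.4% were separated in this way. The antibody comparisons use different libraries, and 4 genes of the set were called higher in both (Atf4, Asns, Psat1 and Herpud1), 1 lower in both (Sesn2) and 3 in neither (Ddit3, Chac1 and Xbp1). In these edgeR fits Trib3 was called without fibronectin alone and Hspa5 with fibronectin alone, although some other settings called Hspa5 without fibronectin too (given below). For neither gene was the difference between surfaces called in its own test, where edgeR gave Trib3 an unadjusted p of 0.0277. Without anti-ITGA5 without fibronectin replicate 2, the genes called higher on uncoated plates went from 5 to 8, by the addition of Ddit3, Chac1 and Hspa5, and those called lower from 1 to 2, by the addition of Xbp1. Over all genes the calls also became more numerous without that library, with 1992 higher and 1842 lower of 13161 tested, compared with 1419 and 1265 of 12924.

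**Figure D3:**
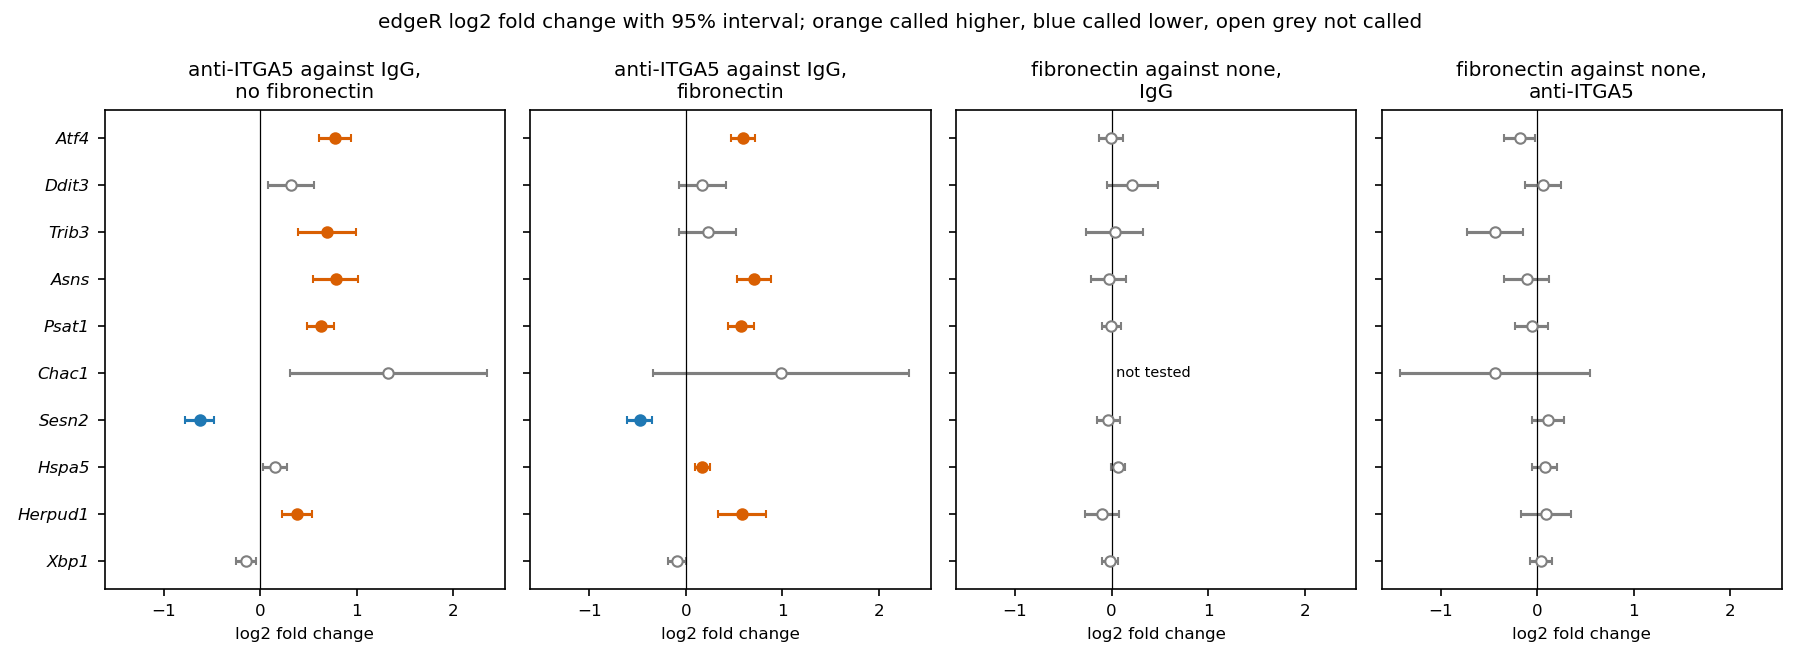
log2 fold change of the 10 genes (points) with its 95% confidence interval (bars) from edgeR, for anti-ITGA5 against IgG on each surface and for fibronectin against no coating under each antibody. Genes called higher are orange, genes called lower blue and genes not called open grey. Atf4, Asns, Psat1 and Herpud1 are called higher and Sesn2 lower in both antibody panels, and no gene is called in either fibronectin panel.

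Atf4 (ENSMUSG00000042406, chr15:80255184-80257541, plus strand, GRCm38) encodes the transcription factor at the centre of the integrated stress response. Its level was 46.7, 44.5 and 50.7 FPKM in the IgG libraries and 87.5, 71.3 and 82.7 FPKM in the anti-ITGA5 libraries without fibronectin. With fibronectin it was 46.4, 44.4 and 51.6 FPKM in IgG and 75.1, 70.7 and 69.1 FPKM in anti-ITGA5. All anti-ITGA5 libraries were above all IgG libraries on both surfaces, and the lowest of the 6 was anti-ITGA5 with fibronectin replicate 3. The log2 fold change was 0.77 ± 0.075 (SE, adjusted p = 6.33e-05) without fibronectin and 0.59 ± 0.058 (adjusted p = 1.55e-05) with it. When each library was left out in turn it ranged from 0.72 to 0.85 on uncoated and from 0.54 to 0.65 on coated plates.

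Ddit3 (ENSMUSG00000025408, chr10:127290774-127296288, plus strand) encodes CHOP, a C/EBP family factor induced downstream of ATF4 that is known for its role in cell death under lasting ER stress. Without fibronectin it measured 8.21, 11.1 and 10.1 FPKM in IgG and 12.6, 12.1 and 12.0 FPKM in anti-ITGA5. The groups did not overlap, yet the log2 fold change of 0.32 ± 0.11 was not called (adjusted p = 0.0564). It was called without anti-ITGA5 replicate 2 (0.32, adjusted p = 0.0389) and without IgG replicate 2 (0.42, adjusted p = 0.0341), and was 0.21 without IgG replicate 1 (adjusted p = 0.188). With fibronectin the values were 9.29, 13.0 and 11.9 FPKM in IgG and 11.8, 13.4 and 13.5 FPKM in anti-ITGA5, which overlapped, and the log2 fold change was 0.17 ± 0.11 (adjusted p = 0.290), ranging from 0.04 without IgG replicate 1 to 0.28 without IgG replicate 2. In each IgG group replicate 1 was the lowest of the 3. Ddit3 overlaps Mars, which lies on the opposite strand and was itself called higher with the antibody on both surfaces, and the strand setting of the counting is not given in the sources used here, so reads of the overlap cannot be told apart.

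Trib3 (ENSMUSG00000032715, chr2:152337422-152344032, minus strand) encodes a pseudokinase induced by ATF4 and CHOP that restrains both. Without fibronectin it measured 2.59, 2.98 and 3.41 FPKM in IgG and 5.18, 4.13 and 5.12 FPKM in anti-ITGA5, a rise of 0.69 ± 0.14 on the log2 scale (adjusted p = 0.00498) with no overlap. With fibronectin it was 3.17, 2.75 and 3.32 FPKM in IgG and 3.13, 3.99 and 3.70 FPKM in anti-ITGA5. Here anti-ITGA5 replicate 1 lay below 2 of the IgG libraries, and the log2 fold change of 0.23 ± 0.14 was not called (adjusted p = 0.239). It ranged from 0.14 without IgG replicate 2 to 0.33 without anti-ITGA5 replicate 1.

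Asns (ENSMUSG00000029752, chr6:7675169-7693254, minus strand) encodes asparagine synthetase, a textbook ATF4 target that makes asparagine from aspartate and glutamine. Its level was 6.73, 7.30 and 6.42 FPKM in IgG and 13.5, 9.93 and 11.5 FPKM in anti-ITGA5 without fibronectin. With fibronectin it was 6.79, 7.02 and 6.29 FPKM in IgG and 11.9, 10.8 and 10.1 FPKM in anti-ITGA5. No anti-ITGA5 library came down to the level of any IgG library, although those without fibronectin were spread more widely. The rise was 0.78 ± 0.11 (adjusted p = 0.000536) without fibronectin and 0.70 ± 0.081 (adjusted p = 5.23e-05) with it on the log2 scale, or 1.72-fold and 1.63-fold.

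Psat1 (ENSMUSG00000024640, chr19:15904678-15947337, minus strand) encodes phosphoserine aminotransferase, an enzyme of serine synthesis. Without fibronectin the IgG libraries measured 15.5, 15.1 and 14.5 FPKM and the anti-ITGA5 libraries 24.2, 21.0 and 24.2 FPKM. With fibronectin they measured 14.9, 15.0 and 15.4 FPKM and 24.1, 22.9 and 20.2 FPKM. The IgG libraries of both surfaces spanned little more than 1 FPKM, well clear of every anti-ITGA5 library. The log2 fold change was 0.62 ± 0.063 (adjusted p = 8.20e-05) without fibronectin and 0.57 ± 0.062 (adjusted p = 3.19e-05) with it.

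Chac1 (ENSMUSG00000027313, chr2:119351229-119354381, plus strand) encodes an enzyme that degrades glutathione and is strongly induced by ATF4 in many cells. Without fibronectin it had 10, 8 and 4 counts in IgG and 28, 11 and 16 counts in anti-ITGA5, which are 0.354, 0.276 and 0.139 FPKM and 0.975, 0.488 and 0.476 FPKM. The groups did not overlap, but the log2 fold change of 1.33 ± 0.46 was not called (adjusted p = 0.0650). With fibronectin it had 17, 4 and 2 counts in IgG and 10, 22 and 11 counts in anti-ITGA5, and IgG replicate 1 stood above 2 of the anti-ITGA5 libraries. The log2 fold change of 0.99 ± 0.61 was not called (adjusted p = 0.260), and it became 2.35 (adjusted p = 0.0243) without that IgG library and 0.55 (adjusted p = 0.624) without anti-ITGA5 with fibronectin replicate 2. Without fibronectin it was called with the replicate block (1.33, adjusted p = 0.0443) and without anti-ITGA5 replicate 2 (1.46, adjusted p = 0.0297), whereas it was 0.91 (adjusted p = 0.293) without anti-ITGA5 replicate 1.

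Sesn2 (ENSMUSG00000028893, chr4:132492032-132510501, minus strand) was the only gene of the set called lower. It encodes sestrin 2, a stress-induced leucine sensor that restrains the growth kinase mTORC1, and it is induced by p53 and other factors as well as by ATF4. Without fibronectin it measured 13.6, 12.7 and 13.2 FPKM in IgG and 8.38, 7.88 and 9.19 FPKM in anti-ITGA5. With fibronectin it measured 13.2, 13.0 and 12.4 FPKM in IgG and 9.68, 9.0 and 9.12 FPKM in anti-ITGA5. Every anti-ITGA5 library was below every IgG library. The log2 fold change was -0.63 ± 0.068 (adjusted p = 0.000142) without fibronectin and -0.48 ± 0.061 (adjusted p = 0.000108) with it, a direction opposite to that of Atf4, Asns and Psat1 in the same libraries.

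Hspa5 (ENSMUSG00000026864, chr2:34771970-34777547, plus strand), the BiP gene, is the usual readout of the unfolded protein response. Without fibronectin it measured 387, 376 and 378 FPKM in IgG and 450, 386 and 429 FPKM in anti-ITGA5. Anti-ITGA5 replicate 2 fell within the IgG range, and edgeR did not call the log2 fold change of 0.15 ± 0.056 (adjusted p = 0.0765). It was 0.21 (adjusted p = 0.000629) without that library and 0.11 (adjusted p = 0.267) without anti-ITGA5 replicate 1. With all libraries kept, Hspa5 was called by DESeq2 (0.15, adjusted p = 0.0465) and by edgeR with total counts for scaling (0.19, adjusted p = 0.0160). It was also called with all 12 libraries in one fit (0.16, adjusted p = 0.0207) and with the replicate block (0.15, adjusted p = 0.0485). With fibronectin it measured 401, 394 and 403 FPKM in IgG and 461, 444 and 443 FPKM in anti-ITGA5, with no overlap. There it rose by 0.17 ± 0.035 on the log2 scale (adjusted p = 0.00362), or 1.12-fold, the smallest change of any gene of the set that was called.

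Herpud1 (ENSMUSG00000031770, chr8:94386438-94395377, plus strand) encodes an ER membrane protein that takes part in the removal of misfolded proteins, and its window held both an ATF4 composite element and an ER stress element II. Without fibronectin it measured 10.2, 10.4 and 10.3 FPKM in IgG and 14.1, 13.6 and 12.6 FPKM in anti-ITGA5. With fibronectin it measured 10.2, 10.3 and 8.53 FPKM in IgG and 15.9, 15.9 and 11.6 FPKM in anti-ITGA5. Replicate 3 was the lowest of its group in both antibody groups with fibronectin, and still the groups did not overlap. The rise on the log2 scale was 0.38 ± 0.070 (adjusted p = 0.00335) without fibronectin and 0.58 ± 0.12 (adjusted p = 0.00269) with it, and limma on log2(FPKM + 0.1) did not call the latter (0.56, adjusted p = 0.0583).

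Xbp1 (ENSMUSG00000020484, chr11:5520659-5525893, plus strand) encodes the transcription factor of the IRE1 arm. Without fibronectin it measured 51.0, 50.9 and 49.2 FPKM in IgG and 45.6, 43.4 and 46.9 FPKM in anti-ITGA5. With fibronectin it measured 51.5, 50.0 and 48.7 FPKM in IgG and 47.0, 48.2 and 45.6 FPKM in anti-ITGA5. The anti-ITGA5 libraries were the lower ones on both surfaces without overlap, by a small margin with fibronectin. The log2 fold changes of -0.15 ± 0.049 (adjusted p = 0.0545) and -0.09 ± 0.042 (adjusted p = 0.121) were not called. On uncoated plates Xbp1 was called lower without anti-ITGA5 replicate 2 (-0.12, adjusted p = 0.0373) and with all 12 libraries in one fit (-0.15, adjusted p = 0.0205). It was also called with a filter of 10 counts in every library (-0.15, adjusted p = 0.0439). Without IgG replicate 1 its adjusted p was 0.205.

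The genes whose levels followed those of Atf4, Asns and Hspa5 most closely were ranked by Pearson correlation of log2 CPM over the 12 libraries among 13455 genes. The points share the split between IgG and anti-ITGA5, so the coefficients largely describe that split and are given with no test. For Atf4 the closest were Fam173b (r = 0.975), Nop56 (0.975), Ncl (0.973), Tars (0.972) and Aars (0.971), where Nop56 and Ncl encode nucleolar proteins of ribosome production and Tars and Aars encode tRNA synthetases. For Asns they were Aldh18a1 (0.989), an enzyme of proline synthesis, Magt1 (0.981), Yars (0.980), a tRNA synthetase, Hmgn2 (0.980) and Ppt1 (0.980). For Hspa5 they were Wdr46 (0.968), Calr (0.959) and Pdia3 (0.957), which encode the ER lectin calreticulin and its partner disulfide isomerase in the latter cases, with Tubb6 (0.958) and Atp5b (0.957).

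In order to place the set among other genes of the pathway, 9 lists were examined in the same fits. Of all genes, 11.0% were called higher and 9.79% lower without fibronectin, and 14.4% and 13.2% with it. The lists were chosen with earlier results of these data known, so a share above these is a description and not independent support. Of 10 tested enzymes of amino acid synthesis and one-carbon metabolism, 6 were called higher and 0 lower without fibronectin, and 6 and 0 of 9 with it. Phgdh, the first enzyme of serine synthesis upstream of Psat1, rose by 1.33 ± 0.15 and 1.67 ± 0.15 on the log2 scale without and with fibronectin (adjusted p = 0.000199 and 1.12e-05), Mthfd2, a mitochondrial folate enzyme, by 1.06 and 0.87, and Aldh18a1 by 0.80 and 0.74. Pck2 rose by 0.59 and 0.37 and Shmt2 by 0.44 and 0.57. Of 9 tested amino acid transporters 4 were called higher and 0 lower without fibronectin, and 5 and 2 with it. Among those that reached 10 counts in each of the libraries compared, Slc7a5, which imports leucine and other large neutral amino acids, rose most (1.72 ± 0.082 and 1.63 ± 0.090, adjusted p = 1.95e-06 and 5.42e-07). Slc7a1, a carrier of arginine and lysine, rose by 0.72 and 0.69 and Slc1a5, a glutamine carrier, by 0.40 and 0.34, whereas Slc7a11, the cystine importer, fell by 0.69 with fibronectin (adjusted p = 0.0331). One call among the transporters called lower with fibronectin was lost without IgG replicate 2 or 3 or anti-ITGA5 replicate 1 or 2, and 1 transporter was called lower on uncoated plates without IgG replicate 1 or anti-ITGA5 replicate 2 or 3. With fibronectin, limma on log2(FPKM + 1) or log2(FPKM + 0.1) called 0 transporters lower in place of 2, and 3 higher in place of 5. Of 20 cytosolic tRNA synthetases 11 were called higher and 1 lower without fibronectin and 16 and 0 with it, among them Cars (0.71 and 0.64) and Yars (0.46 and 0.47) on both surfaces. Lars (0.45) and Aars (0.45) were among the largest rises without fibronectin, and Mars (0.50) and Vars (0.42) with it. The synthetase called lower was Qars (-0.18, adjusted p = 0.0257), named after its value was seen, and no synthetase was called lower when any library other than anti-ITGA5 replicate 2 was left out.

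Another list held 11 further genes described as ATF4 or CHOP responsive, and none of its 10 tested genes was called higher on either surface. It had 5 lower without fibronectin and 6 with it, with a median log2 fold change of -0.32 and -0.38. Ddit4, an mTORC1 inhibitor, fell by 1.00 ± 0.22 and 0.98 ± 0.20 (adjusted p = 0.00904 and 0.00311) and Vegfa, the angiogenic growth factor, by 0.57 and 0.65. Ero1l, an ER oxidase, fell by 0.42 and 0.35, and Gdf15, a stress-induced cytokine, by 0.34 and 0.40. Ddit4, Vegfa and Ero1l are also well known to be induced by hypoxia. Among 7 tested transcription factors of the integrated stress response, Atf3 fell by 0.19 (adjusted p = 0.0497) and Nupr1 rose by 0.59 (adjusted p = 0.0454) without fibronectin. The Atf3 call was lost without any 1 of the IgG libraries or without anti-ITGA5 replicate 1, and that of Nupr1 without any 1 of the IgG libraries or without anti-ITGA5 replicate 1 or 3. With fibronectin Cebpb fell by 0.47 ± 0.055 (adjusted p = 5.84e-05) and Atf3 by 0.36 ± 0.049 (adjusted p = 0.000186), and 0 factors were called higher (1 without IgG replicate 2). Of 9 genes listed for eIF2α, its kinases and their inhibitor, and its phosphatase, Eif2ak2, which encodes PKR, was the only call without fibronectin and fell by 0.21 (adjusted p = 0.0200), 11.1% of the list and close to the share of all genes, a call lost without IgG replicate 2 or 3 or anti-ITGA5 replicate 1. With fibronectin Ppp1r15b, which directs a phosphatase to eIF2α, rose by 0.20 (adjusted p = 0.00536) and Eif2s1, eIF2α itself, by 0.14 (adjusted p = 0.0300), and 1 of these calls was lost without IgG replicate 1 or 2 or anti-ITGA5 replicate 1 or 2.

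Lists for the other arms of the unfolded protein response were counted in the same way, and differences between lists were not tested. Of 17 genes of the ATF6 arm and ER chaperones, 6 were called higher and 0 lower without fibronectin, and 10 and 1 with it. Pdia4 (0.40 and 0.47), Dnajc10 (0.39 and 0.43), Sdf2l1 (0.49 and 0.33) and Creld2 (0.35 and 0.30), all folding factors of the ER, rose on both surfaces. The number called higher became 10 without fibronectin when anti-ITGA5 replicate 2 was left out, and 6 with fibronectin when anti-ITGA5 replicate 1 was left out. In limma on log2(FPKM + 0.1) it was 3 without fibronectin and 5 with it, and limma on log2(FPKM + 1) also gave 5 with it. Of 13 genes of the IRE1 and XBP1 arm 0 were called higher on either surface and 2 lower, Dnajb9 (-0.30 and -0.31, adjusted p = 0.0170 and 0.00339) and Ern1, which encodes IRE1 itself (-0.22 and -0.22, adjusted p = 0.0464 and 0.00197), which is 15.4% of the list and close to the share of all genes with fibronectin. Without fibronectin this count was 0 without IgG replicate 1 or 3 or anti-ITGA5 replicate 1, and 4 without anti-ITGA5 replicate 2. Of 12 tested genes of ER-associated degradation 3 were called lower and 0 higher without fibronectin, and 4 and 1 with it. Herpud2 (-0.28 and -0.22), Os9 (-0.25 and -0.32) and Derl1 (-0.19 and -0.14) fell on both surfaces, while Derl2 rose by 0.16 with fibronectin (adjusted p = 0.0457). Those called lower became 1 without fibronectin when IgG replicate 1 or 3 was left out and 2 with fibronectin when IgG replicate 1 was left out, and the Derl2 call was lost without IgG replicate 1 or 2 or anti-ITGA5 replicate 1 or 2. Leaving out anti-ITGA5 replicate 2 on uncoated plates also added calls, with 2 eIF2α genes, 1 gene of the IRE1 and XBP1 arm and 2 of ER-associated degradation called higher, and 1 of the ATF6 list called lower, and it took the transcription factors called higher from 1 to 2. Among eIF2α genes with fibronectin, 1 was called lower without IgG replicate 3 or without anti-ITGA5 replicate 3. Herpud1 thus rose in the same libraries in which Herpud2 fell.

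**Figure D4:**
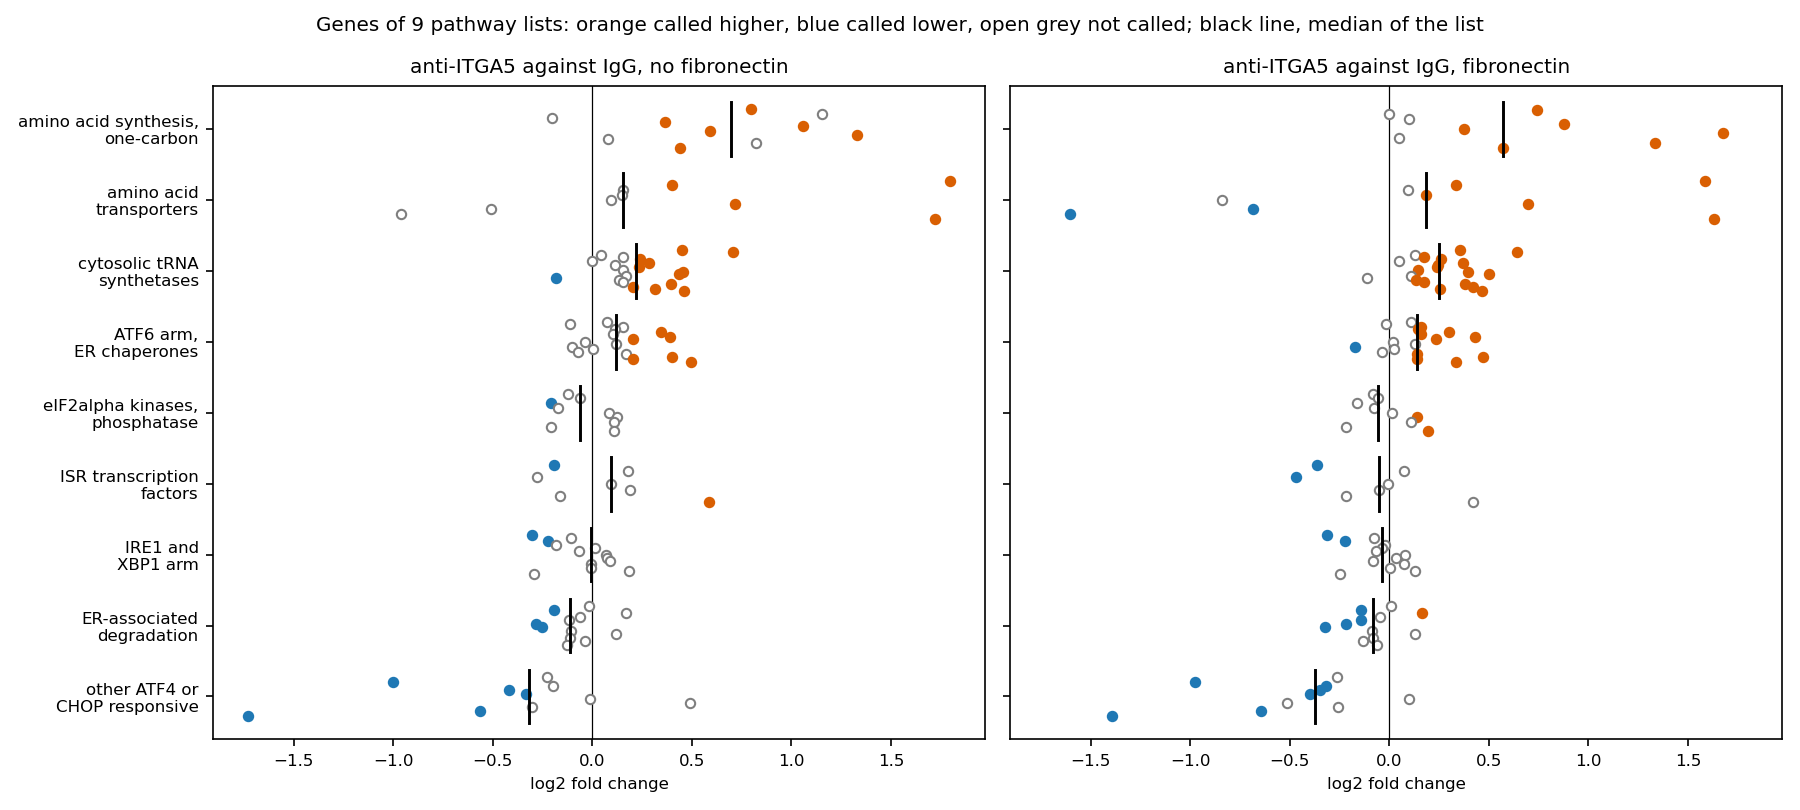
log2 fold change (horizontal axes) of every tested gene of 9 pathway lists for anti-ITGA5 against IgG without fibronectin (left) and with it (right), with the median of each list as a black line. Genes called higher are orange, genes called lower blue and others open grey. Amino acid synthesis enzymes, transporters and tRNA synthetases lie mostly to the right, and other ATF4 or CHOP responsive genes to the left.

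The fibronectin coating was compared with uncoated plates under each antibody. In IgG, 9 genes of the set passed the filter (Chac1 did not) and 0 were called by edgeR or DESeq2, with 0 at an unadjusted p of 0.05 or less, compared with 0.325% of 12925 genes called higher and 0.124% called lower by edgeR (1266 at an unadjusted p of 0.05 or less). DESeq2 called 86 of these genes higher and 42 lower. Of these 9 genes Ddit3 had the largest difference, 0.22 on the log2 scale (95% interval -0.05 to 0.48), which ranged from 0.10 without IgG replicate 1 of the uncoated plates to 0.34 without IgG replicate 1 of the coated ones. The difference of Atf4 was -0.00 (-0.12 to 0.12), that of Asns -0.03 (-0.21 to 0.15) and that of Psat1 -0.00 (-0.10 to 0.10). Hspa5 was the only gene whose FPKM did not overlap, at 376 to 387 without and 394 to 403 with fibronectin, whereas 15.4% of all genes tested were separated. Its log2 difference of 0.07 (-0.00 to 0.13) was not called (adjusted p = 0.529). In anti-ITGA5 all 10 genes were tested and 0 were called by edgeR or DESeq2. Over all 12863 genes edgeR called 0% higher and 0% lower and DESeq2 called 4 higher and 1 lower, although 461 had an unadjusted p of 0.05 or less and separation of FPKM occurred in 9.74%. Trib3 was the one gene separated, with 5.18, 4.13 and 5.12 FPKM without fibronectin and 3.13, 3.99 and 3.70 FPKM with it, a log2 difference of -0.44 (-0.73 to -0.14, unadjusted p = 0.00786, adjusted p = 0.979 by edgeR). Atf4 differed by -0.18 (-0.34 to -0.03, unadjusted p = 0.0267, adjusted p = 0.979 by edgeR).

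Finally, the difference between the antibody effects with and without fibronectin was tested over all 12 libraries. It was called for 0 of the 10 genes by edgeR or DESeq2, with Trib3 alone at an unadjusted p of 0.05 or less, and for 0.0223% of 13455 genes overall (3 genes, with 386 at an unadjusted p of 0.05 or less). The antibody effect on Trib3 was smaller with fibronectin by 0.47 on the log2 scale (95% interval of the difference -0.88 to -0.06, unadjusted p = 0.0277, adjusted p = 1.000 by edgeR), and that on Atf4 by 0.18 (-0.40 to 0.03). For Hspa5 the difference was 0.01 (-0.12 to 0.15), for Asns -0.08 (-0.38 to 0.21), for Psat1 -0.06 (-0.25 to 0.14), for Sesn2 0.14 (-0.04 to 0.33) and for Herpud1 0.19 (-0.13 to 0.51). For Chac1 the interval was wide (-2.24 to 1.53).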

How the data were processed

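The submitters' notes and the methods describe poly(A)-enriched libraries, alignment to GRCm38 with TopHat2 2.0.9, counting per gene with HTSeq 0.6.1 and FPKM per gene. The authors deposited raw read counts per gene, without normalization, and FPKM values for 12 libraries, which scale each count by gene length and by 1 library size that is common to all genes of a library but differs from its count total. The counting setting for strand is not given in the sources used here. The members and the lists were chosen with earlier results of these data known. The named genes were all 10 members, Itga5 and Itgb1, up to 4 called genes of each list with the largest change and at least 10 counts in every library compared, and the 5 genes most correlated with Atf4, Asns and Hspa5. Lists also covered markers of macrophages and other cell types, of which 1 list is not reported here. Counts were tested with edgeR 4.0.16 in R 4.3.3 (filterByExpr with a minimum count of 10 and total of 15, TMM scaling, quasi-likelihood F test, Benjamini-Hochberg adjustment over all genes tested, called at 0.05 or less) on the 6 libraries of each comparison, or on all 12 for the interaction. The standard error is the log2 fold change divided by the square root of F. FPKM groups of 3 were compared with 2-sided exact permutation tests, which cannot go below p = 0.1, and are therefore given as overlapping or not. In simulated counts with a log2 change of 1 set in 200 genes, edgeR found 163 without fibronectin (12924 genes, 12 false calls) and 172 with it (12916 genes, 12 false calls). For the interaction it found 143 (13455 genes, 7 false calls). A change of 1 is larger than that of any called gene of the set, so recovery of changes of their size was not measured. Far more than 200 genes were called in both antibody comparisons of the data. Depth of 12954342 to 22075432 counts per library limits Chac1 most. Alternatives were DESeq2 1.42.0, DESeq2 size factors or total counts for scaling, a filter of 1 count in any library or of 10 counts in each, a joint fit of the 12 libraries, a replicate block, limma 3.58.1 on log2(FPKM + 1) and log2(FPKM + 0.1) with a mean of at least 0.5 FPKM, a threshold of 0.01 and the omission of single libraries. Promoter sequences are from RefSeq (GRCm38.p6) and were matched by symbol, gene positions from GENCODE M21 of the same build.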

Additional observations from a re-analysis of the deposited data

How the results depend on the processing

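No fold change of the 10 genes changed sign where it had been called. Of 825 repeated values, 808 kept their side of the threshold, 16 moved past it and 1 lost it, which was Herpud1 with fibronectin in limma on log2(FPKM + 0.1). Without fibronectin, the genes called lower rose from 1 to 2 with at least 10 counts in every library and with all 12 libraries in one fit, and ranged from 1 to 2 when each library was left out. Those called higher were 8 in place of 5 with the replicate block and ranged from 5 to 8 when each library was left out. With fibronectin the genes called higher ranged from 5 to 6 when each library was left out and were 4 in limma on log2(FPKM + 0.1), and those called lower stayed at 1. In the fibronectin comparisons and the interaction the count was 0 throughout the settings run. The replicate numbers share no stated origin. In both antibody comparisons each IgG library was closest to the anti-ITGA5 library of its own number, with correlations of 0.03 to 0.15. The same held between coatings in IgG (0.05 to 0.14). Between coatings in anti-ITGA5 it held for replicate 1 (0.13) but not for replicates 2 (-0.006) and 3 (-0.020). This is a mixed hint from the data and not the design. The replicate block moved calls over all genes from 1265 lower and 1419 higher to 1421 and 1547 without fibronectin, from 1699 and 1866 to 2217 and 2321 with it, and from 16 and 42 to 133 and 283 for fibronectin in IgG. Scaling by total counts gave 940 lower and 1838 higher without fibronectin and 1264 and 2407 with it, and shifted the median of all genes to 0.05 and 0.04. For Ddit3, Chac1, Hspa5 and Xbp1 without fibronectin the call therefore rests on the setting, while Atf4, Asns, Psat1 and Sesn2 passed in both antibody comparisons under every setting run.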
